A study of Mus musculus with 8 samples.

Results

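Among the cells of the mouse periosteum, 246 of 12253 kept cells were fibroblasts in which transcripts of Pi16, Dpp4, Efemp1 and Procr outnumbered those of Ccl11, Inmt, Col15a1 and Cxcl14. They are called Pi16/Dpp4 fibroblasts here, and 106 of them came from mice on normal diet (ND) and 140 from mice on a high-fat diet (HFD). The study concerned bone and nerve changes in mice fed a high-fat diet, its model of diabetes. For the single-cell measurement, periosteal cells were freed from left femurs and tibias with collagenase I and dispase II and captured in droplets. There, RNA is tagged by cell and by molecule, the latter with unique molecular identifiers (UMIs), so molecules rather than reads are counted. The mice were C57BL/6J males of 16 weeks without a transgene or deletion in the labels, and the labels list 4 mice per diet. The deposited counts hold 1 pooled library per diet with no map from cells to mice, so every comparison of diets sets 1 library against 1 library and has no replicate check. Diet and library preparation cannot be told apart, and no p-value is given.

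The periosteum is the thin sheet of connective tissue that covers bone. Its outer layer holds fibroblasts, vessels and nerves, and its inner layer holds cells that form bone and cartilage during growth and repair. Fibroblasts that carry Pi16, a secreted protease inhibitor family member, and Dpp4, a cell surface dipeptidase also known as CD26, are found in the outer coats of vessels and in the fascia of many organs. In fat depots, cells of this kind are known as progenitors that can give rise to preadipocytes. Ly6a, the surface protein Sca-1, and Cd34 mark both these cells and other fibroblasts.

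The members were chosen by measured values. A barcode was kept if it had over 500 but below 8000 genes with a UMI and if mitochondrial genes took less than 20% of its UMIs, and it was taken as a collagen-expressing cell when Col1a1, Col1a2, Col3a1 and Dcn made up 0.5% or more of its UMIs. Endothelial cells were removed by any UMI of Cdh5, mural cells by 5 or more of Rgs5, bone-forming cells by 20 or more of Bglap, Bglap2 and Ibsp together, and tendon and cartilage cells by 5 or more of Tnmd, Chad, Scx and Mkx together. Cells with 5 or more Ly6a UMIs remained, and the sum of the Pi16 group was then set against the sum of the Ccl11 group. From 6314 ND barcodes, 6029 were kept, 411 passed the collagen level, 183 were Ly6a fibroblasts and 106 lay on the Pi16 side. From 6636 HFD barcodes the numbers were 6224, 682, 264 and 140. The cells on the other side, 71 in ND and 112 in HFD, are called Ccl11/Col15a1 fibroblasts, and 6 and 12 cells were tied and belong to neither. The libraries shared 15 barcode sequences, none of them among the members.

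In the annotation of the mouse genome build mm10 (GRCm38), the Pi16 gene lies on the plus strand at chr17:29317680-29330593 and Dpp4 on the minus strand at chr2:62330073-62412231. Efemp1, which encodes a fibulin of the extracellular matrix, lies at chr11:28853204-28926743 on the plus strand. Procr, the endothelial protein C receptor, lies at chr2:155751117-155755471, also on the plus strand. The UMIs are counted over whole genes, so they carry no position within them.

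Most members stood far from the dividing line, but HFD members stood closer to it than ND members. The median sum of the Pi16 group was 26.0 UMIs per cell in ND and 20.0 in HFD, against a median of 0 for the Ccl11 group in both. No UMI of the Ccl11 group was found in 60 ND and 75 HFD members. Just inside the line, with 1 UMI more on the Pi16 side, were 4 ND and 7 HFD cells, and just outside it, with 1 UMI fewer, were 5 and 10. More than 10 UMIs separated the sums in 76 of 106 ND members and 78 of 140 HFD members. A lead of only 1 to 3 UMIs was found in 14 ND and 27 HFD members. At the Ly6a limit, 1 ND and 3 HFD members had exactly 5 UMIs, while 1 and 2 cells of the Pi16 side with 4 were left out. All genes of the Pi16 group were detected together in 53 of 106 ND members and 56 of 140 HFD members, and a single gene carried the choice in 11 and 19.

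**Figure D1:**
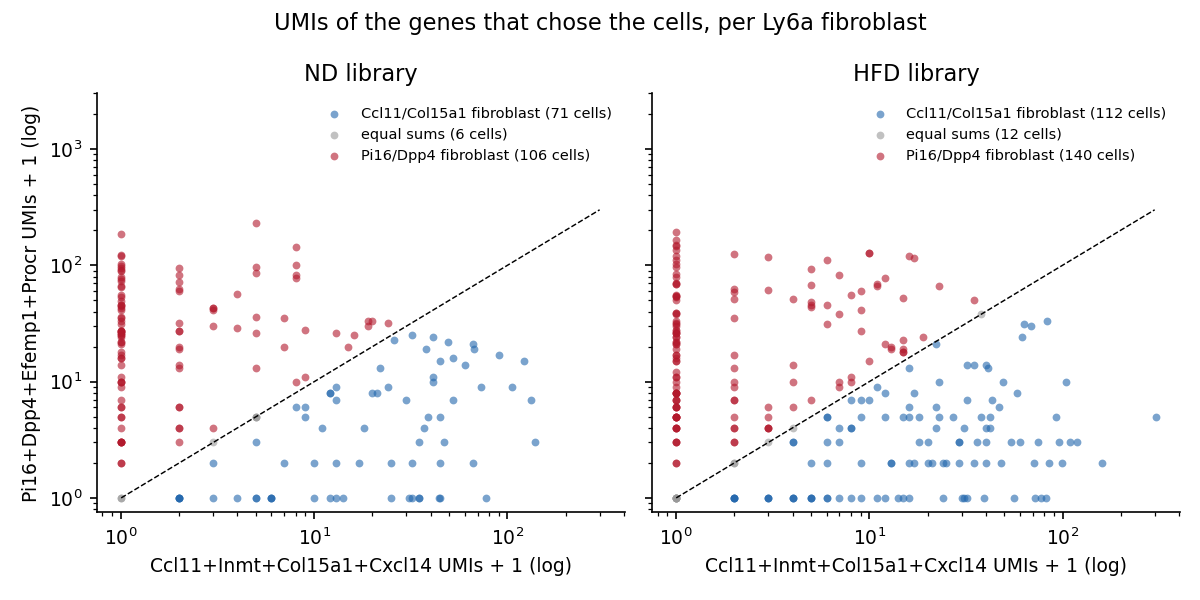
Summed UMIs of Pi16, Dpp4, Efemp1 and Procr (vertical axis) against those of Ccl11, Inmt, Col15a1 and Cxcl14 (horizontal axis) in each Ly6a fibroblast of the ND and HFD libraries, on log axes after adding 1. Points above the diagonal are the 106 ND and 140 HFD members, and most of them lie far from the line, less often in HFD than in ND.

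The members were deeply sequenced for droplet data. ND members held 1410156 UMIs in all, with a lowest cell of 3392, a median of 12151 and a highest of 32597, and HFD members held 1833547, with 3068, 12329 and 46222. Their median share of mitochondrial UMIs was 1.15% in ND and 1.23% in HFD. The unit of level is UPM, the UMIs of a gene per 1000000 UMIs of all cells of a set, with exact 95% intervals, which account for counting error alone. Ratios are log2 values computed after adding 0.5 to each count, for genes with 20 or more UMIs over both sums, and 1.5-fold is the size from which a gene is counted as higher or lower.

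Pi16/Dpp4 fibroblasts were 1.76% of kept ND cells (interval 1.44 to 2.12, Clopper-Pearson) and 2.25% of kept HFD cells (1.90 to 2.65). Among collagen-expressing cells the order was the opposite, with 25.8% in ND (21.6 to 30.3) and 20.5% in HFD (17.6 to 23.8). Within Ly6a fibroblasts they made up 57.9% in ND (50.4 to 65.2) and 53.0% in HFD (46.8 to 59.2). The ND and HFD intervals overlapped with each denominator. All these shares are of cells released by the digest.

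The genes of the choice are given as a description. Pi16 stood at 1849 UPM in ND members and 1826 in HFD members, against 196 and 189 in Ccl11/Col15a1 fibroblasts. Dpp4 stood at 158 and 196, against 64.3 and 32.4. Efemp1 had levels of 421 and 428 in the members and of 117 and 46.1 in the other cells. For Procr the members' levels were 511 in ND and 335 in HFD, and those of Ccl11/Col15a1 fibroblasts were 67.8 and 36.0. All of them were also lower in the tendon and bone cells removed by the gate, where Pi16 was at 45.2 (ND) and 24.7 (HFD) in tenocyte-like cells and at 1.43 and 7.95 in osteoblast-like cells.

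Cd55 and Fbn1 mark this type of fibroblast in other tissues and were not used to choose the cells. Cd55, a surface protein that limits complement, was at 870.1 UPM in ND members (interval 822 to 920.2) and 978 in HFD members (934 to 1025), against 236 and 211 in Ccl11/Col15a1 fibroblasts. Fbn1, the main protein of microfibrils, was at 1374 (1313 to 1436) and 1688 (1629 to 1749), against 692 and 552. Both were lower again in Ly6a-low fibroblasts, at 109.8 and 54.0 for Cd55 and at 212 and 282 for Fbn1. Thus both markers stood highest in the members among the sets compared, in each library. Cd34 was at 957 and 995 in the members and at 781 and 642 in Ccl11/Col15a1 fibroblasts, 1.22-fold in ND and 1.55-fold in HFD.

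**Figure D2:**
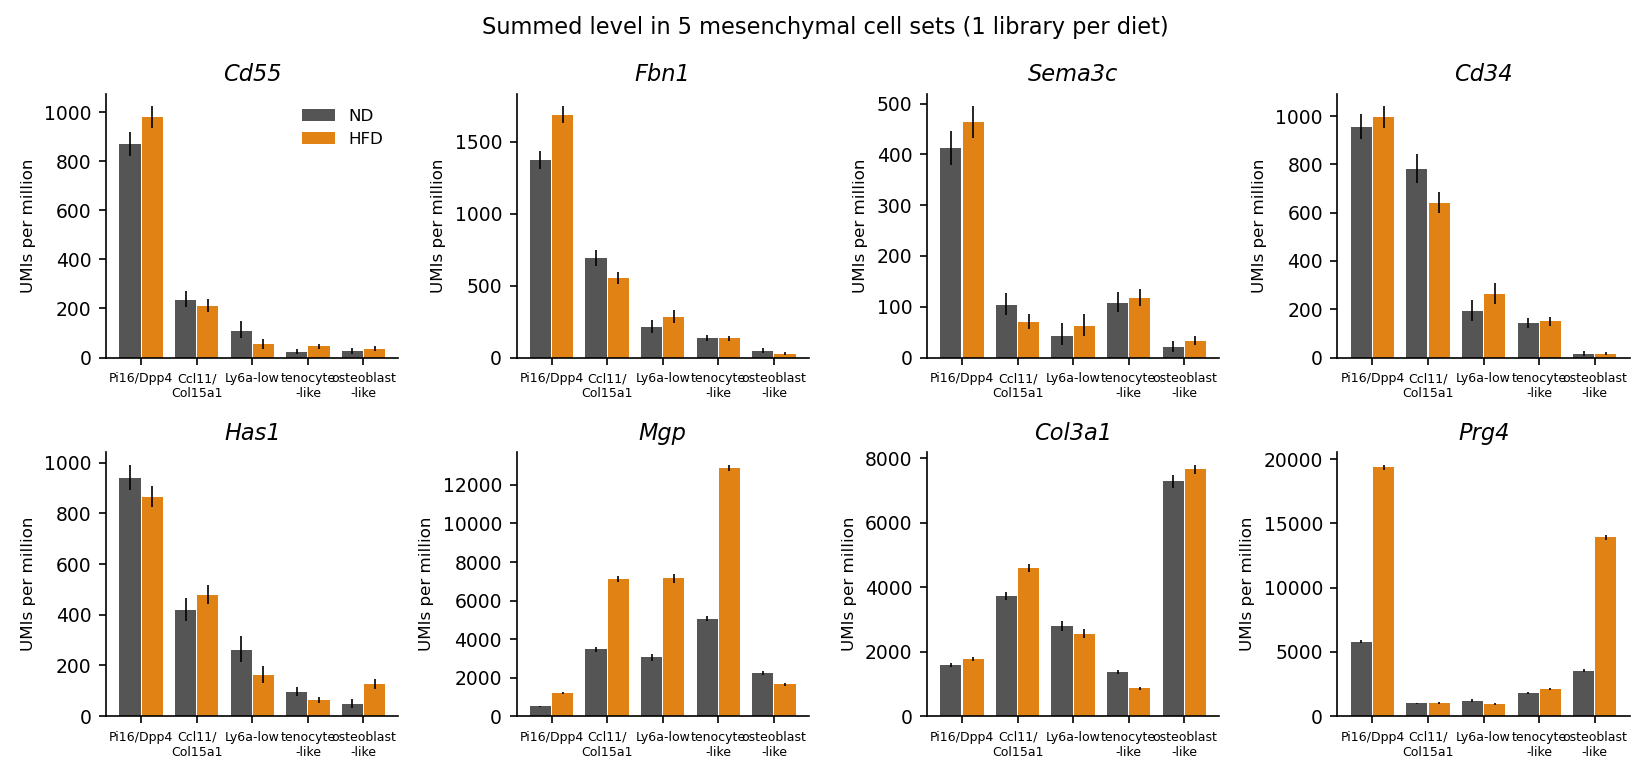
Levels of 8 genes (Cd55, Fbn1, Sema3c, Cd34, Has1, Mgp, Col3a1 and Prg4) in UMIs per 1000000 (UPM, vertical axes) in Pi16/Dpp4, Ccl11/Col15a1 and Ly6a-low fibroblasts, tenocyte-like and osteoblast-like cells of the ND and HFD libraries. Bars start at 0 and error bars are exact Poisson 95% intervals, which cover counting error only. Cd55 and Fbn1, which did not enter the choice, are highest in Pi16/Dpp4 fibroblasts in both libraries.

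A UMI of a gene was looked for in each cell after thinning all cells to 2000 UMIs, and B cell-like cells, which should lack fibroblast genes, served as background. Their median depth was 3867 UMIs in ND and 3822 in HFD before thinning, 1511 of 1561 and 1417 of 1460 of them were deep enough, and all members were. Pi16 was detected in 62.3% of ND members and 60.7% of HFD members, and in 0.728% and 0.776% of B cell-like cells. Before thinning the shares for Pi16 were 81.1% and 78.6% of members and 1.99% and 1.44% of B cell-like cells. Fbn1 was detected in 75.5% and 72.9% of members (91.5% and 90.0% before thinning), against 0.132% and 0.494% (0.384% and 1.03%). Dpp4 was found in 25.5% and 29.3% (67.0% and 67.1% before thinning), with a share of 8.60% and 10.1% in B cell-like cells (17.8% and 20.8%). Cd55 was found in 59.4% and 59.3% (84.0% and 86.4%), against 40.5% and 37.4% in B cell-like cells (54.1% and 52.9%). The shares of Pi16 and Dpp4 in the members follow from the choice. Of the markers outside it, Fbn1 was nearly absent from B cell-like cells and Cd55, which is also known from lymphocytes, was not. Ccl11/Col15a1 fibroblasts had Fbn1 in 42.6% of ND and 56.2% of HFD cells (74.6% and 89.3% before thinning). Cd55 was found in 26.5% and 32.1% of them (57.7% and 59.8%), and Pi16 in 26.5% and 19.6% (42.3% and 43.8%). Before thinning, their HFD share of Fbn1 was close to the 90.0% of members.

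The members were also described by a list of 29 progenitor fibroblast markers beside the genes of the choice, and 28 of these markers had enough UMIs. Cd55, Fbn1 and Cd34, described above, are among them. In both libraries 22 of them were higher than in Ccl11/Col15a1 fibroblasts by 1.5-fold or more and 0 were lower. Over all 8308 genes, 368 (4.43%) were higher in both libraries and 472 (5.68%) were lower. These cells were selected on genes that vary together with the list, so the count describes the split and is not evidence of its own. Sema3c, a secreted guidance cue, was at 412 and 463 UPM in ND and HFD members against 104 and 69.9, and Anxa3, a membrane-binding annexin, was at 423 and 393 against 97.1 and 60.5. Ackr3, a receptor that takes up chemokines, was at 780.1 and 670.3 against 382 and 235. Fibronectin (Fn1) was at 4195 and 5307 against 2601 and 1138. The markers of the label were present. The list of 24 Col15a1 fibroblast markers had 0 higher and 21 lower genes, but it holds the 4 genes of the Ccl11 group, whose direction the choice had fixed.

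The genes outside the choice that stood furthest above Ccl11/Col15a1 fibroblasts included signalling genes. Wnt10b, a Wnt ligand that is known to favour bone formation over fat formation, was at 60.3 UPM in ND and 49.6 in HFD members against 2.34 and 5.04, a log2 ratio of 4.37 and 3.21. Dact2, an intracellular modulator of Wnt and TGF-beta signals, had ratios of 4.18 in ND and 4.97 in HFD, and Car8, a relative of carbonic anhydrase that lacks its enzyme activity, had 3.94 and 5.58. The remaining genes of this group were Matn4, a matrilin (3.42 and 3.08), Il18, a cytokine of the interleukin-1 family (3.16 and 2.80), Duox1, an oxidase that makes hydrogen peroxide (2.90 and 3.78), Ildr2 (2.95 and 2.75) and Limch1 (2.65 and 2.73). Matn4 was found in only 13 ND and 17 HFD members and stood against 1 ND and 6 HFD UMIs in Ccl11/Col15a1 fibroblasts. Rorb, a nuclear receptor, had a ratio of 2.98 in ND and no UMI in HFD Ccl11/Col15a1 fibroblasts. Bmp3 had 44 ND and 52 HFD UMIs in the members and 0 on the other side in both libraries. Clic5 (3.92 and 3.77), F13a1 (3.88 and 4.12) and Ccl4 (3.38 and 4.09) also met the rule, but they were carried by few cells. One HFD member held 93.1% of its library's Ccl4 UMIs, and without the immune-rich and Prg4-rich cells described below the ratio of F13a1 was 1.25 in ND and -1.78 in HFD.

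On the other side stood genes of several kinds. Fmod, the collagen-binding proteoglycan fibromodulin, was at 4.25 and 9.82 UPM in the members against 141 and 174, a log2 ratio of -4.95 in ND and -4.11 in HFD. Mgp, matrix Gla protein, which limits calcification, was at 506 and 1209 against 3463 and 7122. Smoc2, a matricellular protein, had ratios of -4.28 and -3.29, Mdk, the growth factor midkine, -4.42 and -3.44, and Cyp26b1, which breaks down retinoic acid, -4.07 and -3.30. Gdf10, a BMP-like factor, Meox1, a homeobox factor, and Col4a1, a basement membrane collagen, were lower as well, and so were Lsamp, Ecrg4 and Nid2. Tagln met the rule too, but 99.8% of its UMIs in ND and 100% in HFD Ccl11/Col15a1 fibroblasts lay in 1 cell.

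**Figure D3:**
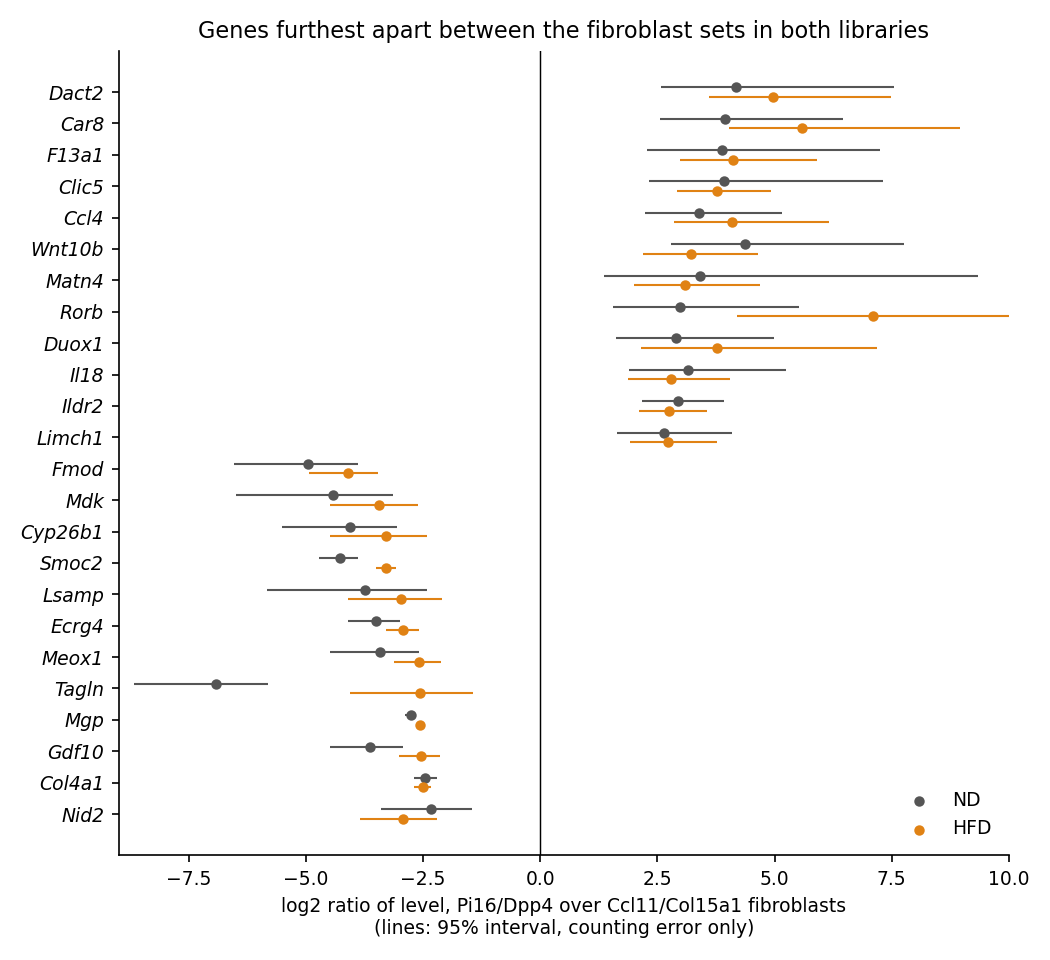
Log2 ratio of Pi16/Dpp4 over Ccl11/Col15a1 fibroblasts (horizontal axis) for the 12 genes named on each side, with ND and HFD as separate points and exact 95% counting intervals as lines. All points lie on the side of their group, between -6.92 for Tagln in ND and 5.58 for Car8 in HFD, apart from the HFD point of Rorb, which stands against 0 UMIs, depends on the added 0.5 and has an interval that runs past the axis.

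Matrix genes divided along the same split. Of 12 fibrillar and associated collagen genes, 10 were lower in the members in both libraries and 1, Col14a1, was higher, with a median log2 ratio of -1.04 in ND and -1.10 in HFD beside -0.03 and -0.02 over all genes. Col1a1 stood at 956 UPM in ND members against 2407 and Col3a1 at 1593 against 3719.8. Of 11 basement membrane genes 7 were lower and 0 higher, among them Col4a1 at 133 in ND members against 724, and Col15a1, which the choice had fixed. Small leucine-rich proteoglycans had 4 lower of 9 (Bgn, Lum, Fmod and Podn). The shares over all genes were 4.43% higher and 5.68% lower. Genes of elastic fibres and microfibrils went both ways, with 6 of 20 higher (Fbn1, Mfap5, Efemp1, Emilin2, Ltbp1 and Ltbp2) and 3 lower (Eln, Mfap2 and Emilin1), Efemp1 being a gene of the choice. Most of the collagen genes measured were thus lower in the members. The collagens Col1a1, Col1a2 and Col3a1 also set the gate, on both sides alike.

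Genes of hyaluronan synthesis (Has1, Has2 and Ugdh) were higher in the members. Has1 and Has2, the synthases, were at 940.3 and 116 UPM in ND members against 419 and 32.7, and at 865 and 104 in HFD members against 478 and 42.5. Ugdh, which makes their sugar precursor, was at 996 in ND members against 319 and at 533 in HFD members against 199. Of 10 hyaluronan and lubrication genes, 4 were higher in both libraries (Has1, Has2, Ugdh and Prg4) and 2 lower (Itih5 and Clu), beside 4.43% and 5.68% of all genes. The value of Prg4 rests on few cells: without the immune-rich and Prg4-rich cells described below, on both sides, its log2 ratio was 1.00 in ND and 0.18 in HFD, in place of 2.55 and 4.24.

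Among Wnt ligands and R-spondins, which activate or boost Wnt signals, Wnt2, Wnt10b and Rspo2 were higher in the members and Wnt5a was lower, of 6 measured. Of 5 secreted Wnt inhibitors Sfrp4 was higher (1041 UPM in ND members against 513) and Sfrp2 lower (78.7 against 249). Wnt receptors and targets had 0 higher and 3 lower of 13. In the BMP pathway, 3 of 21 genes were higher (the ligands Bmp2, Bmp3 and Bmp6) and 7 lower, namely the ligands Bmp5 and Gdf10, the extracellular modulators Fst and Bmper, the receptor Acvr1 and the target genes Id2 and Id4. FGF, PDGF, VEGF and IGF genes had 4 higher (Fgf2, Pdgfc, Vegfd and Igfbp5) and 5 lower (Fgf7, Pdgfra, Pdgfrb, Igfbp3 and Igfbp7) of 20. Over all genes 4.43% were higher and 5.68% lower, and no test of these families was run.

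Genes that address nerves were divided in the same manner, and their counts stand beside 4.43% of all genes higher and 5.68% lower. Of 15 axon guidance and neurotrophic ligands 5 were higher in the members (the semaphorins Sema3b, Sema3c and Sema3e, the netrin Ntn4 and the ephrin Efna5) and 4 lower (Sema5a, Ntf3, Ptn and Mdk). Sema3e was at 112 UPM in ND members against 15.2, and at 63.3 in HFD members against 11.5. Of 14 receptors for neural signals 2 were higher (Ntrk3 and Tek) and 5 lower (Ntrk2, Pdgfra, Pdgfrb, Nrp1 and Lifr).

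Markers of skeletal stem and progenitor cells were not on the members' side. Of 13 measured, 0 were higher and 6 lower (Pdgfra, Pdgfrb, Ctsk, Postn, Lepr and Eng), with Pdgfra at 297 and 273 UPM against 465 and 446. Of 11 adipogenic genes, Zfp423 and Ebf2, early factors of the fat lineage, were higher and Cebpd and Lpl lower. Adipoq, Plin1 and Cidec, which mark mature fat cells, had 0 UMIs. Cell cycle genes had 0 higher and 0 lower of 8. Over all genes 4.43% were higher and 5.68% lower, so the cell cycle count does not depart from them.

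A principal component analysis of 443 Ly6a fibroblasts thinned to 2000 UMIs, tied cells included and 5313 genes outside the choice, asked whether the split is visible elsewhere. The first component explained 1.93% of the variance. Its positive side held 72 of 106 ND members (67.9%) and 104 of 140 HFD members (74.3%), beside 14 of 68 (20.6%) and 15 of 112 (13.4%) Ccl11/Col15a1 fibroblasts. Fbn1, Fn1, Cd55, Igfbp5 and Pcolce2 led the positive side, and Mgp, Apod, Cst3, Gpx3 and Zfp36 led the other. The sides overlapped. In 82.6% of ND and 85.9% of HFD pairs of 1 cell from each side, the member had the higher score. These genes were measured in the cells that had been chosen, and the placement is a description.

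Levels differed widely among the members themselves. Per cell, Pi16 had a median of 901 UPM in ND with a lowest value of 0 and a highest of 20302, and in HFD the median was 610.4 with a range of 0 to 11276. For Procr the medians were 370.2 and 157, for Fbn1 812 and 1045 and for Cd34 940.1 and 1089. Dcn, decorin, which enters the collagen gate, was found in every member, with a lowest cell of 3247 and a median of 14629.6 in ND. Most cells had no or little Mgp, with medians of 0 and 36.2 and highest cells of 13312 and 26340.2. The cells of a library come from an unknown split over the labelled mice, so this spread mixes cells and animals.

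A few members carried very high levels of Prg4, which encodes lubricin, the lubricant of joint surfaces and tendon sheaths. With Prg4 at 1% or more of a cell's UMIs, there were 7 such cells in ND (1.01% to 18.1%, median 1.43%) and 10 in HFD (1.00% to 26.1%, median 14.6%). At 4% or more there were 2 and 9. They were poor in the gene that names the set: Pi16 had no UMI in 6 of the 7 and 6 of the 10, and Dpp4 none in 5 and 9, while Procr was missing in 1 and 0 and Efemp1 in 2 and 2. Their levels are set here against the 79 ND and 120 HFD members that were neither Prg4-rich nor immune-rich, as defined below. Cd34 was at 569 UPM in the ND Prg4-rich cells against 1128, and at 101 against 1204 in HFD. Clic5, a chloride channel family protein, was at 383 against 19.2 in ND and 796 against 9.94 in HFD, and Cpe, carboxypeptidase E, was at 168 against 5.33 and 993 against 24.1. The rule thus gathered a few lubricin-rich cells whose other levels go against the label of Pi16 and Dpp4. Prg4-rich cells were also found outside the members, for example 3 ND and 8 HFD osteoblast-like cells, the highest with 31.8% of its UMIs.

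Other members carried transcripts of blood cells. Neutrophil markers made up 1% or more of UMIs in 18 ND and 12 HFD members, with a median over all members of 0.0791% and 0.0901% and highest cells of 29.6% and 32.6%. Markers of macrophages, B cells and T cells reached 0.2% in 9 and 10. Together 21 ND members (19.8%) and 13 HFD members (9.29%) met either limit and are called immune-rich. In them S100a9, the most abundant neutrophil marker, was at 39254 UPM in ND and 69202 in HFD, and Pi16 was at 832 and 679 beside 2442 and 2240.4 in the members that were neither immune-rich nor Prg4-rich. These 79 ND and 120 HFD members, with 937378 and 1408232 UMIs, are given as a second value below. The limits on both kinds of cells were chosen after the values were seen. Whether these cells hold 2 cells in a droplet, free RNA or their own transcripts was not tested. A doublet caller marked 1 ND member and 0 HFD members, but it marked only 9 HFD cells in all (0.145%) and so did not work there.

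**Figure D4:**
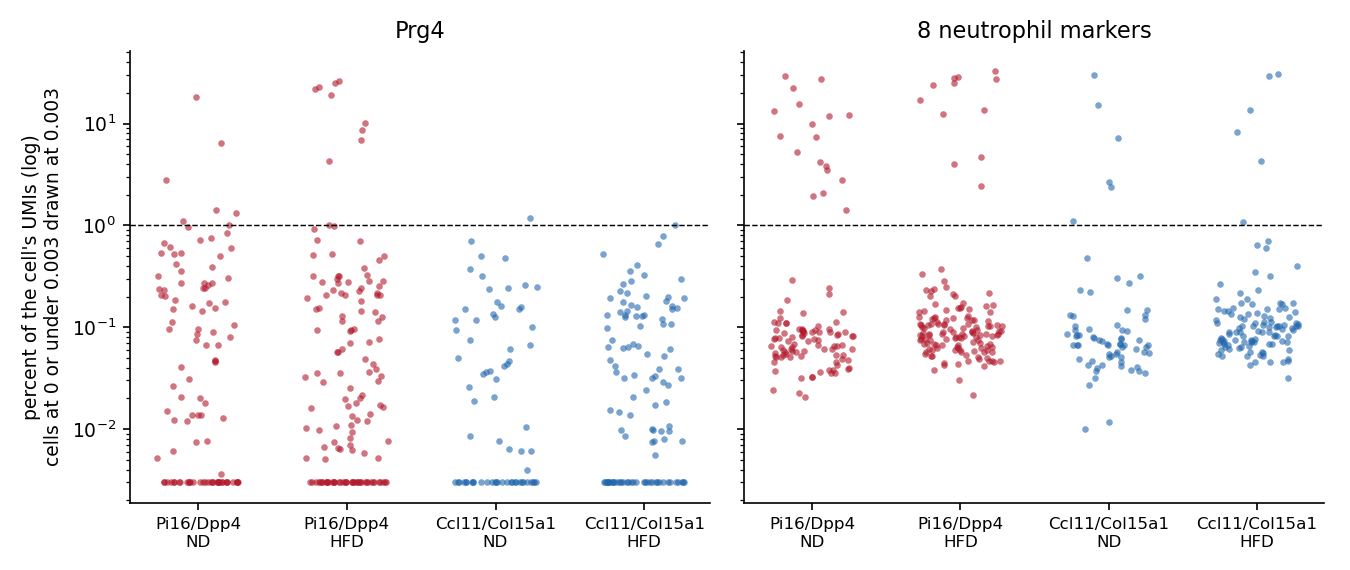
Share of each cell's UMIs (percent, log axis) taken by Prg4 (left) and by 8 neutrophil markers (right) in Pi16/Dpp4 and Ccl11/Col15a1 fibroblasts of the ND and HFD libraries, with 1 point per cell and a dashed line at 1%, and with cells at 0 or under 0.003% drawn at 0.003%. Prg4 reaches 18.1% in ND and 26.1% in HFD members, and the neutrophil markers form a separate upper cloud of 18 ND and 12 HFD members.

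The summed UMIs of Pi16, Dpp4, Efemp1 and Procr had to exceed those of the Ccl11 group in every member, so their ratios between the diets are a description of chosen cells. HFD over ND, as a log2 ratio, came to -0.02 for Pi16 (interval -0.09 to 0.06), 0.03 for Efemp1 (-0.13 to 0.18), 0.17 for Cd55 (0.06 to 0.28), 0.30 for Fbn1 (0.21 to 0.38) and 0.31 for Dpp4 (0.06 to 0.56). Procr was lower in HFD by more than 1.5-fold, with 720 ND and 615 HFD UMIs and a ratio of -0.61 (-0.76 to -0.45). Over all 9349 genes measured, 986 (10.5%) were higher and 623 (6.66%) lower in HFD by 1.5-fold or more, with a median of 0.05. Among 33 progenitor fibroblast markers 3 were higher (Gap43, Opcml and Cmah) and 3 lower (Procr, Tnfaip6 and Wnt2), a share close to that of all genes, with a median of 0.06. Without immune-rich and Prg4-rich cells 1035 of 8374 genes (12.4%) were higher and 515 (6.15%) lower, with a median of 0.08.

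The largest ratios in favour of HFD came in part from the lubricin-rich cells. Prg4 had 8171 ND and 35522 HFD UMIs and a ratio of 1.74, and 95.3% of the HFD UMIs lay in the 10 Prg4-rich cells. In the members that were neither immune-rich nor Prg4-rich its ratio was -0.24. A UMI of Prg4 was found in 2.37% of ND and 15.1% of HFD B cell-like cells as deposited and in 1.39% and 7.90% after thinning, so the background of Prg4 differed between the libraries, and its part in low Prg4 values was not tested. Osteoblast-like cells, which also held Prg4-rich cells, had Prg4 at 3531 UPM in ND and 13901 in HFD. Htra4, a secreted protease, had 7 and 282 UMIs, 96.1% of the latter in Prg4-rich cells, and Cpe had 23 and 258. Cp, ceruloplasmin, had a ratio of 1.58, and of -0.59 when immune-rich and Prg4-rich cells were left out. Without those cells Htra4 was at 1.61, with an interval of -0.32 to 5.09 that spans 0, and Cpe was at 2.06 (0.82 to 3.89).

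Other genes were higher in HFD in the remaining members as well. Mfap4, a microfibril-associated glycoprotein, had 5 UMIs in 2 ND members and 127 in 13 HFD members, a ratio of 4.16 (interval 3.03 to 5.94) and of 3.95 without immune-rich and Prg4-rich cells. Smoc2 had 52 and 223 UMIs (1.71 and 1.34), Crispld2, a secreted matrix protein, 26 and 110 (1.68 and 1.52) and Spon2, spondin 2, 27 and 105 (1.56 and 2.61). Fgl2 had ratios of 1.71 and 0.71. For S100b they were 1.54 and 1.00, but the latter had an interval of -0.31 to 2.69, and 80.4% of its HFD UMIs lay in Prg4-rich cells. Ptn, the growth factor pleiotrophin, had 7 and 80 UMIs, a ratio of 3.05 (2.03 to 4.50), and of 3.23 without immune-rich and Prg4-rich cells. In Ccl11/Col15a1 fibroblasts the ratios were 0.87 for Mfap4, 0.71 for Smoc2, 0.06 for Crispld2, -0.36 for Spon2, 0.17 for Fgl2, 1.22 for S100b and 0.33 for Ptn, and whether the sets differ was not tested.

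Several of these genes belong to the other side of the split. Of 24 Col15a1 fibroblast markers, 9 were higher in HFD members (Col15a1, Col4a2, Gdf10, Smoc2, Mgp, Sparcl1, F3, Vcam1 and Lum) and 0 lower, with a median of 0.34, beside 10.5% higher, 6.66% lower and a median of 0.05 over all genes. The list holds Col15a1, Ccl11, Inmt and Cxcl14, whose sum the rule keeps below that of the Pi16 group in every member. The summed level of all 24 markers was 2909 UPM in ND members and 4609.6 in HFD members, still well below the 12855 and 19114 of Ccl11/Col15a1 fibroblasts, where it was higher in HFD too. Without immune-rich and Prg4-rich cells 10 were higher and 1 lower (median 0.40), and with members required to lead by 3 UMIs the median was 0.40. HFD members stood closer to the dividing line than ND members, and the part of this in the result was not tested with a wider margin. Mgp had 714 ND and 2217 HFD UMIs, a ratio of 1.26 (1.13 to 1.38), beside 1.04 in Ccl11/Col15a1 fibroblasts. In tenocyte-like cells Mgp was at 5044 UPM in ND and 12886 in HFD, so its higher level was not particular to the members, and free RNA of other cells was not tested as a source.

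Small leucine-rich proteoglycans had 4 higher (Lum, Fmod, Omd and Podn) and 0 lower of 9, with a median of 0.53, beside 10.5% and 6.66% of all genes. Fmod had only 6 and 18 UMIs, and its interval of -0.19 to 2.83 spans 0. Without immune-rich and Prg4-rich cells 3 were higher and 0 lower, with a median of 0.46. The summed level of the list, led by Dcn, was 18921 UPM in ND and 18639 in HFD. In this list Lum, lumican, was at 479 UPM in ND and 857 in HFD. Of 20 elastic fibre genes 4 were higher (Eln, Mfap2, Mfap4 and Fbln5) and 1 lower (Ltbp2), and Eln, elastin, had 29 and 99 UMIs, a ratio of 1.38 (0.78 to 2.04). Of 12 collagen genes 1 was higher, Col5a3, and 0 were lower, and Col1a1 stood at 956 and 1155. Basement membrane genes had 2 higher (Col4a2 and Col15a1) and 0 lower of 11, and 1 and 1 without immune-rich and Prg4-rich cells. Matrix proteases and their inhibitors had 3 higher and 3 lower of 19, with Timp1 at 145 in ND and 64.9 in HFD, a ratio of -1.16. Of 11 hyaluronan and lubrication genes 3 were higher (Prg4, Cemip2 and Itih5) and 2 lower, and without immune-rich and Prg4-rich cells 0 and 2 of 9. The lower ones were Ugdh (1405 and 978 UMIs, -0.90) and Tnfaip6, which links proteins to hyaluronan (1161 and 810 UMIs, -0.90), while the synthases Has1 (-0.12) and Has2 (-0.16) stood near 0.

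**Figure D5:**
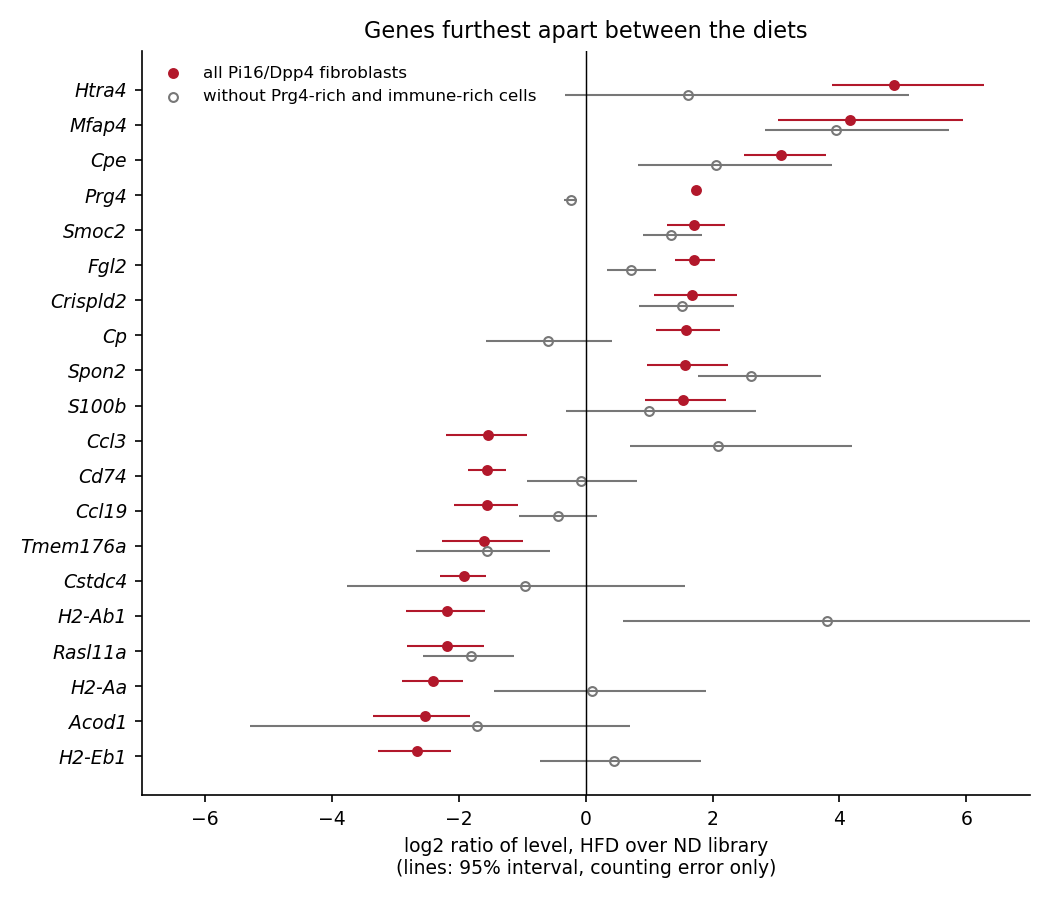
Log2 ratio of HFD over ND in Pi16/Dpp4 fibroblasts (horizontal axis) for the 10 genes highest and the 10 lowest among genes with 100 or more UMIs, over all members and without immune-rich and Prg4-rich cells, with exact 95% counting intervals as lines. Mfap4 stays near 4 under both, while Prg4, Cp, Ccl3 and the MHC class II genes H2-Aa and H2-Eb1 do not keep their sign, and the second point of H2-Ab1 stands against 0 ND UMIs and depends on the added 0.5.

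The genes lowest in HFD were led by genes typical of antigen-presenting cells. H2-Eb1, H2-Aa and H2-Ab1, chains of MHC class II, and Cd74, their invariant chain, had ratios of -2.66, -2.40, -2.18 and -1.55. For H2-Aa, 96.9% of the ND UMIs lay in immune-rich members. Without immune-rich and Prg4-rich cells the ratios of H2-Eb1, H2-Aa and Cd74 were 0.45, 0.10 and -0.08. Acod1, an enzyme of activated macrophages (-2.53), Cstdc4 (-1.92), Ccl19 (-1.55) and Ccl3 (-1.54) were also among the 10. Rasl11a, a small GTPase, had 109 and 31 UMIs (-2.18, and -1.81 without those cells), and Tmem176a, a membrane protein, 73 and 31 (-1.60 and -1.56). Of the 10, Rasl11a, Tmem176a, Acod1 (-1.72) and Cstdc4 (-0.95) were past 1.5-fold lower without those cells, but the intervals of Acod1 (-5.30 to 0.70) and Cstdc4 (-3.77 to 1.56) then spanned 0.

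A list of 38 immediate-early and dissociation genes, which includes heat shock chaperones and genes known to be induced by tissue digestion, mostly had ratios below 0. Of the 38, 8 were lower in HFD by 1.5-fold or more, beside 6.66% of all genes (Fosb, Atf3, Hspa1a, Hspa1b, Hspb1, Hsph1, Ccn1 and Mcl1) and 0 were higher. In all, 35 were below 0, and the median was -0.35. Fosb had 1848 and 1431 UMIs (-0.75), Atf3, a stress-induced factor, 2423 and 1805 (-0.80), and Hspa1b, a heat shock chaperone, 441 and 244 (-1.23). Fos itself, at 5343 and 4714 UPM, had a ratio of -0.18. The summed level of the list was 38011 UPM in ND members and 29466 in HFD members, and 43076 and 37211 in Ccl11/Col15a1 fibroblasts. The part of the digestion in this result was not tested. Without immune-rich and Prg4-rich cells 9 were lower and the median was -0.31.

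MAPK pathway and feedback genes, which share members with the list above, had 2 higher (Spry1 and Map2k4) and 6 lower (Mapk14, Dusp2, Dusp6, Dusp10, Spry4 and Hspb1) of 39, with a median of -0.18, beside 10.5% of all genes higher and 6.66% lower. Without immune-rich and Prg4-rich cells 2 were higher and 5 lower of 36, with a median of -0.09. Their summed level was 17136 UPM in ND and 13841 in HFD members, and 21117 and 18373 in Ccl11/Col15a1 fibroblasts. Of 21 glucocorticoid and clock genes 5 were lower (Zbtb16, Sgk1, Mt1, Mt2 and Per3) and 3 higher (Dbp, Nr1d1 and Bhlhe41), with a median of -0.29. Sgk1, a kinase induced by glucocorticoids, had 531 and 301 UMIs (-1.20), and Mt1, a metallothionein induced by the same hormones and by metals, had 5873 and 4640 (-0.72). Mt1 was at 2676 UPM in ND and 1077 in HFD tenocyte-like cells, so the direction was shared with cells outside the set.

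Genes of lipid handling had 5 higher of 27 (among them Angptl4, Hmgcs1, Insig1 and Sqle) and 2 lower (Fabp5 and Mgll), with a median of 0.06. The shares of all genes were 10.5% higher and 6.66% lower. Hmgcs1, Insig1 and Sqle belong to the cholesterol programme, and Insig1, which holds back cholesterol synthesis, had 70 and 165 UMIs, a ratio of 0.85 (interval 0.45 to 1.28) beside -0.23 in Ccl11/Col15a1 fibroblasts. Adipogenic genes had 0 higher and 1 lower of 12 (Fabp5), with a median of 0.07, hypoxia and glycolysis genes 0 and 0 of 17, and mTOR pathway genes 1 higher (Rptor) and 2 lower (Tsc1 and Tsc2) of 23. The counts of the last 3 lists were near or under the shares of all genes.

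Receptors for neural signals were measured because the study concerns nerves that reach the periosteum. Of 16, 2 were higher (Calcrl and Erbb2) and 1 lower, close to the shares of all genes (10.5% and 6.66%), and the median was 0.13. In the members outside the immune-rich and Prg4-rich cells 1 was higher and 1 lower of 13, and the median was -0.05. Calcrl, which forms the receptors for CGRP and adrenomedullin with a RAMP protein, had 42 ND and 142 HFD UMIs, a ratio of 1.37 (0.87 to 1.91) and of 1.34 without immune-rich and Prg4-rich cells. A UMI of Calcrl was found in 23.6% of ND and 43.6% of HFD members as deposited and in 5.66% and 11.4% after thinning, against 5.77% and 7.05% of B cell-like cells as deposited and 2.58% and 3.11% after thinning. Its partners differed less, with Ramp1 at 80.8 and 64.9 UPM and Ramp2 at 358 and 394. In Ccl11/Col15a1 fibroblasts the ratio of Calcrl was -0.03. The difference between the sets was not tested.

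Counts in ligand families stand beside 10.5% of all genes higher and 6.66% lower. Axon guidance and neurotrophic ligands had 4 higher (Sema3f, Sema5a, Efnb1 and Ptn) and 2 lower, among them Sema3e, of 16, but without immune-rich and Prg4-rich cells 1 was higher and 0 lower of 11. Wnt5a (19 and 70 UMIs, ratio 1.48) and Rspo3 were higher and Wnt2 lower of 7 Wnt ligands, and of 5 secreted Wnt inhibitors Sfrp4 was lower, at 1041 and 680.1 UPM. Wnt10b, at 60.3 and 49.6, had an interval of -0.72 to 0.16 that spans 0. Wnt receptors and targets had 5 higher (Fzd5, Fzd7, Lrp5, Ror1 and Nkd2) and 1 lower (Ror2) of 18, with a median of 0.20. BMP pathway genes had 3 higher (Bmp5, Gdf10 and Fst) and 1 lower (Chrd) of 22, TGF-beta pathway genes 2 higher (Tgfb3 and Ccn2) and 2 lower (Ltbp2 and Bambi) of 22, FGF, PDGF, VEGF and IGF genes 2 higher (Fgf1 and Fgf18) and 0 lower of 21, and Notch and Hedgehog genes 1 higher (Gli1) and 0 lower of 9. Among members that were neither immune-rich nor Prg4-rich, Wnt ligands had 1 higher and 0 lower of 6, secreted Wnt inhibitors 0 and 0 of 5, Wnt receptors and targets 3 and 2 of 16, BMP pathway genes 5 and 1 of 22 and Notch and Hedgehog genes 0 and 0 of 7. Ccn2, a matricellular target of TGF-beta, had 320 and 1118 UMIs, a ratio of 1.42, which was 0.80 without immune-rich and Prg4-rich cells.

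Over all genes 10.5% were higher and 6.66% lower, and several of the following counts are near those shares. Complement genes had 1 higher (C2) and 2 lower (C4b and C7) of 13, with C4b at 445 and 209 UPM and C7 at 188 and 66.5. Of 21 chemokine and cytokine ligands 4 were higher (Cxcl16, Ccl2, Ccl5 and Kitl) and 3 lower (Cxcl13, Ccl19 and Il1b), but without immune-rich and Prg4-rich cells 7 were higher and 1 lower of 20. Of 18 interferon-stimulated genes 4 were higher (Ifit2, Irf1, Irf9 and Stat2) and 1 lower (Isg15), and without those cells 4 and 0 of 17. Stemness genes had 4 higher (Itga6, Aldh1a1, Aldh1a2 and Aldh1a3) and 0 lower of 18, and skeletal stem cell markers 3 higher (Gli1, Postn and Nt5e) and 0 lower of 14. Cell cycle genes had 1 higher (Ccnd2) and 3 lower (Cenpa, Hmgb2 and Mcm6) of 11, and without immune-rich and Prg4-rich cells 1 and 1 of 8. The lists of bone, tendon and cartilage genes were measured through 7, 4 and 2 genes only. Bone genes had 4 higher (Bglap and Bglap2, whose UMIs the rule limits, Phex and Omd) and 1 lower (Dlx5). Tendon genes had 2 higher (Thbs4 and Fmod, the latter with 6 and 18 UMIs) and cartilage genes 1 higher (Matn4). Leaving out immune-rich and Prg4-rich cells, bone genes had 2 higher and 1 lower of 4, tendon genes 1 and 1 of 4 and cartilage genes 0 and 0 of 2.

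Markers of other cell types were summed beside these results. The 8 neutrophil markers, with S100a9 the most abundant, were at 26139 UPM in ND and 28577 in HFD members, and the 7 macrophage markers, led by Lyz2, at 834 and 649.6. The 6 B cell markers, led by Cd74, were at 330.5 and 146, and the 5 erythroid markers, led by Hbb-bs, at 61.7 and 108. The 6 osteoblast markers, led by Bglap2, which the rule limits, and with Dmp1 at 0, were at 4.25 and 48.0. The 6 mural markers were at 9.22 and 22.9 (led by Acta2), the 5 T cell markers at 3.55 and 11.5 (led by Cd3d) and the 6 endothelial markers at 7.80 and 3.27, with Cdh5, which the rule requires to be absent, and Emcn at 0. The 4 adipocyte markers were at 1.42 and 1.64 with Adipoq, Plin1 and Cidec at 0, and the 5 muscle markers at 5.67 and 7.09. The 6 Schwann cell markers were at 527 and 514, led by Pmp22, which fibroblasts express too, with Sox10 at 0. Xist had 0 UMIs in both libraries and Ddx3y was present, which matches the male label. Apart from the neutrophil list, each list was at 834 UPM or less in the members. In Ccl11/Col15a1 fibroblasts the neutrophil markers were at 15442 UPM in ND and 12225 in HFD. Of the 8, 6 were higher in the members in both libraries, beside 4.43% of all genes. Without immune-rich and Prg4-rich cells the members' level of these markers was 723 UPM in ND and 937 in HFD. Immune-rich cells were 8.45% of Ccl11/Col15a1 fibroblasts in ND and 8.04% in HFD, beside 19.8% and 9.29% of the members.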

How the data were processed

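The authors deposited UMI counts per gene and cell barcode, 1 matrix of 32285 genes per diet, without normalization, and per the submitters' processing notes they were made with Cell Ranger 6.0.1 on mm10. The matrices held 48558889 (ND) and 49940976 (HFD) UMIs. All barcodes carry the same suffix, so each diet is 1 library. Cells were kept by the limits on genes and mitochondrial UMIs of the study's methods and chosen by the UMI limits in the text. Counts were summed over the cells of a set and divided by the set's total. Log2 ratios have exact counting intervals, and no test was run. The intervals were checked on counts simulated with counting error alone, so that check does not cover variation among cells or mice. Tenocyte-like and osteoblast-like cells are the cells removed by the tendon and bone limits, Ly6a-low fibroblasts had fewer than 5 Ly6a UMIs, and B cell-like cells had 3 or more UMIs of Cd79a and Cd79b together, less than the collagen level, no Cd3e and under 20 of S100a8 and S100a9. Scrublet calls were made in scanpy and doublets were kept. Cells were thinned to 2000 UMIs where stated, and shallower cells were left out. Genes were named by rule: the genes of the choice, list members past 1.5-fold or of high level, and, among genes with 100 or more UMIs, the 12 highest and 12 lowest between the fibroblast sets and the 10 highest and 10 lowest between diets. Other named genes were chosen after their values were seen. The members, the 45 gene lists and the rule were chosen with earlier results of these data known. A few list members are counted but not reported by name here. Gene positions are from GENCODE vM21. Computations used scanpy 1.11.5 and anndata 0.12.19 with scipy 1.17.1, pandas 2.3.3 and numpy 2.4.6 under Python 3.11.15, and matplotlib 3.10.9.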

Additional observations from a re-analysis of the deposited data

Results flagged for a closer look

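The following genes had opposite directions in the fibroblast sets, with the interval of each ratio away from 0 in both. The difference itself was not tested, since there is 1 library per diet. Ccl2, a chemokine for monocytes, had a log2 ratio of HFD over ND of 0.63 in Pi16/Dpp4 fibroblasts (567 and 1138 UMIs) and of -0.68 in Ccl11/Col15a1 fibroblasts (360 and 366 UMIs). Without immune-rich and Prg4-rich cells the values were 1.29 and -0.51. Single cells held 30.9% of the ND and 37.8% of the HFD Ccl2 UMIs of the members before that step. The step left 303 ND and 1116 HFD UMIs, so the HFD cell stayed in and the value of 1.29 still rests in part on it.

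Cd74, the invariant chain of MHC class II, had a ratio of -1.55 in the members and 4.39 in Ccl11/Col15a1 fibroblasts, H2-Aa -2.40 and 4.45, H2-Ab1 -2.18 and 5.11, and H2-Eb1 -2.66 and 4.59. One HFD Ccl11/Col15a1 fibroblast held 96.2% of that set's H2-Aa UMIs. Without immune-rich and Prg4-rich cells the ratios were -0.08 and -0.30 for Cd74, 0.10 and 0.50 for H2-Aa and 0.45 and 0.01 for H2-Eb1.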

How the results depend on the processing

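No paired analysis was possible because the labels number the mice of each diet but the cells are not assigned to mice, and leaving out a mouse was not possible for the same reason. The 986 genes higher in HFD were 152 with a minimum of 100 UMIs, 3352 with no minimum and 436 after thinning, and the 623 lower ones were 119, 2474 and 321. Likewise the 368 genes higher than in Ccl11/Col15a1 fibroblasts in both libraries were 162, 993 and 161, and the 472 lower ones 144, 1449 and 150. Without immune-rich and Prg4-rich cells these genes were 320 higher and 394 lower. The share of kept cells was 0.730% in ND and 0.852% in HFD with a collagen level of 2% or more, and 1.41% in ND without immune-rich cells. Within Ly6a fibroblasts the share was 42.3% in ND and 36.6% in HFD with that collagen level, 65.8% in ND with 10 or more Ly6a UMIs, and 46.6% in HFD with a margin of 3 UMIs. Without immune-rich cells, alone or with Prg4-rich cells also left out, the diet ratio turned for H2-Eb1 (0.51 and 0.45), H2-Aa (0.10 in both), Ccl3 (2.07 and 2.08) and H2-Ab1 (3.93 and 3.81, against 0 ND UMIs). Ccl3 was at 0.88 after thinning. Without Prg4-rich cells, alone or with immune-rich cells also left out, it turned for Prg4 (-0.54 and -0.24) and Cp (-0.31 and -0.59). Without both kinds of cells F13a1 turned between the fibroblast sets in HFD (-1.78), and the diet median of the cartilage list was -0.02. Of the list medians under alternatives, other-cell-type and sex gene lists left aside, 311 moved by less than the tolerance and 84 by more, and 1, of the cartilage list, turned from past 1.5-fold. Other medians changed sign too, among them, without both kinds of cells, those of the B cell (-1.43 to 0.54), macrophage (-4.94 to 0.69) and Schwann cell markers (-0.14 to 0.45), secreted Wnt inhibitors (-0.11 to 0.21), neural signal receptors (0.13 to -0.05) and stemness genes (0.04 to -0.01). Fewer genes then had enough UMIs, namely 2 B cell, 1 macrophage and 2 Schwann cell markers in place of 5, 5 and 3. Over the settings, 55.7% to 66.8% of the genes past 1.5-fold were higher in HFD (61.3% as reported). The alternatives that leave out immune-rich or Prg4-rich cells were chosen after seeing the data.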

Other observations

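Among the 79 ND and 120 HFD Pi16/Dpp4 fibroblasts that were neither immune-rich nor Prg4-rich, Thbs4, a thrombospondin of tendon matrix, had a log2 ratio of HFD over ND of 1.41 and Eln of 1.42, while Ccn5, a matricellular inhibitor of fibrosis, had -1.76, Timp1 -1.49, C7, a late complement component, -1.47, Thbs1 -1.21 and Foxc1, a forkhead factor, -1.14. Over all members the ratios were 1.23 for Thbs4, -0.72 for Ccn5, -0.39 for Thbs1 and -0.99 for Foxc1. In Ccl11/Col15a1 fibroblasts the ratios were -0.43 for Thbs4, 1.43 for Eln, 0.27 for Ccn5, 0.33 for Timp1, -0.86 for C7, -1.07 for Thbs1 and -0.44 for Foxc1. These genes were chosen after their values were seen.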
